A study of Homo sapiens with 14 samples.

Results

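CALM2 and CALM3 are human genes that encode one and the same calmodulin protein from different chromosomes. Both were read by gene symbol from a table of exon counts for 62699 genes in 14 libraries. They were selected on their levels and on their ratios with ADAR siRNA in these same libraries, so every value of CALM2 and CALM3 below is a description and none carries a test. The 14 libraries are poly(A)-selected RNA from 4 established cell lines of human tumours: NCI-H1395 (lung adenocarcinoma), AGS (gastric cancer), and 2 triple-negative breast cancer lines, BT-549 and MDA-MB-231. Each line gave 1 library with a control siRNA and 2 libraries, numbered 1 and 2, with an siRNA against ADAR, the gene of the RNA-editing enzyme ADAR1. MDA-MB-231 also gave 1 library with overexpression of NOP14, a nucleolar ribosome assembly protein, and 1 library of its control named PCDH. The labels do not say whether libraries 1 and 2 came from separate cultures or from different siRNAs, and each control is a single library.

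Calmodulin is a small calcium sensor with EF-hand loops, helix-loop-helix folds that hold calcium ions. When calcium rises it changes shape and wraps around short helices in its partners, among them kinases, the phosphatase calcineurin, calcium pumps, channels and myosins. Cells make this one protein from several genes, whose transcripts differ in their noncoding parts and in their choice of codons.

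CALM2 (ENSG00000143933.20) lies on the minus strand of hg38 chromosome 2, from 47160084 to 47176921. CALM3 (ENSG00000160014.17) lies on the plus strand of chromosome 19, from 46601074 to 46610782. The sequences below are the first 120 coding bases, 40 codons read from the start codon, of the principal transcripts of both genes in GENCODE 29 (GRCh38), shown because they tell how reads of 2 genes with one product can be told apart. They are joined from exons on chr2:47162577-47176443 (minus strand) and chr19:46601435-46608282 (plus strand), and the capitals mark the bases that differ between the genes.
CALM2: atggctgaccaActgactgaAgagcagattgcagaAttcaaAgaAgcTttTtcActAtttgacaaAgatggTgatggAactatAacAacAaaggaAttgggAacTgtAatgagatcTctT
CALM3: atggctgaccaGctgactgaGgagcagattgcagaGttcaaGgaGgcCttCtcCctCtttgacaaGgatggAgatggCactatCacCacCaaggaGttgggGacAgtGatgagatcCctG

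In this stretch 21 bases differed, and all 40 codons code for the same amino acids. Over the whole coding sequence of 450 bases, stop codon included, 82 bases differed, which left 81.8% identical. Of these 82 bases, 79 stood at the third codon position, 3 at the first and 0 at the second. All 149 codons before the stop code for the same amino acid in both genes. The longest run of bases that the coding sequences share is 17, and it is also the longest run that the whole principal transcripts share.

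Processed copies of CALM2 are a nearer match. CALM2P2, an intronless copy on chromosome 10 (70163685 to 70164124), is 96.1% identical to the principal CALM2 transcript over 439 aligned bases and shares a run of 143 bases with it. CALM2P2 was counted at 16 to 92 per library, at most 0.671% of the CALM2 count. CALM2P3 on chromosome 13 reached at most 0.108% of the CALM2 count, and CALM2P1 and CALM2P4 were at 0 in all 14 libraries. Reads placed on these copies may come from CALM2, and the reverse, so the CALM2 counts are uncertain to at least that extent. Genes that overlap CALM2 or CALM3 on the same or the opposite strand were nearly empty: PPP5D1P, on the strand opposite to CALM3 with 103 shared exon bases, reached at most 0.902% of the CALM3 count.

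ADAR fell with its siRNA in each line (edgeR's quasi-likelihood test, largest adjusted p = 0.00663, in MDA-MB-231), although over the 4 lines its adjusted p was 0.0996. Of its control level, libraries 1 and 2 of MDA-MB-231 kept 32.3% and 33.8%, those of BT-549 12.9% and 11.5%, those of NCI-H1395 10.6% and 11.9%, and those of AGS 17.6% and 23.97%. NOP14 stood at 852 CPM in its overexpression library and 129 CPM in PCDH. CPM are counts per 1000000 counts of a library, scaled between libraries with TMM (a trimmed mean of ratios). Total counts ran from 13338338 to 27828376 per library. Of these, CALM2 and CALM3 had 5188 to 20519 and 887 to 12592 counts per library. The 4 defining lung markers searched (NKX2-1, NAPSA, SFTPB, SFTPC) were at 0.94 CPM or less in NCI-H1395, and the 6 stomach markers at 2.34 CPM or less in AGS, with MUC6, GKN1 and TFF2 at 0, so the labelled tissues rest on the labels alone. Epithelial genes did not fall into one order. CDH1 stood at 38.3 to 41.9 CPM in AGS and at 0.72 CPM or less in the other lines. KRT18 stood at 1338 to 1808 CPM in AGS, 389 to 582 in NCI-H1395, 289 to 482 in MDA-MB-231 and 71.9 to 94.96 in BT-549. EPCAM stood at 314 to 394 CPM in AGS and at most 0.55 CPM in NCI-H1395. KRT8 ran from at most 4.3 CPM in BT-549 and 238 in NCI-H1395 to at least 1248 in AGS. The mesenchymal genes VIM and ZEB1 stood at 1440 to 2506 and 66.7 to 87.0 CPM in NCI-H1395, and at most 8.1 and 1.7 in AGS. The breast lines held at least 1005 CPM of VIM and 92.7 of ZEB1. CDH2 stood at 58.1 to 82.0 CPM in NCI-H1395 and at most 1.2 elsewhere. The 50 expressed genes nearest to CALM2 on its chromosome, 25 on each side, had median log2 ratios to the control between -0.10 and 0.14 over the 8 ADAR siRNA libraries, so the region around CALM2 stayed close to the other genes.

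With control siRNA, CALM2 was at 451 CPM in BT-549, 458 in MDA-MB-231, 600 in NCI-H1395 and 1199 in AGS. AGS stood highest, 2.66 times the lowest line. With ADAR siRNA, libraries 1 and 2 held 349 and 410 CPM of CALM2 in MDA-MB-231, 404 and 407 in BT-549, and 355 and 368 in NCI-H1395. Those of AGS held 1070 and 713 CPM. Both AGS libraries lay above the other ADAR siRNA libraries, and both of BT-549 above both of NCI-H1395. The range of MDA-MB-231 held those of BT-549 and NCI-H1395, so MDA-MB-231 was not ordered against them.

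CALM3 had another order. With control siRNA it was at 266 CPM in NCI-H1395, 288 in AGS, 568 in MDA-MB-231 and 636 in BT-549. Here the breast lines stood highest, up to 2.39 times the lowest line. With ADAR siRNA it was at 95.8 and 52.9 CPM in libraries 1 and 2 of NCI-H1395 and 118 and 171 CPM in those of AGS. The libraries of MDA-MB-231 held 464 and 555 CPM and those of BT-549 548 and 220 CPM. The ranges of MDA-MB-231 and BT-549 overlapped, those of AGS and NCI-H1395 lay below both, and NCI-H1395 was lowest. Over the 14 libraries CALM3 varied 12.01-fold (52.9 to 636 CPM, median 348) and CALM2 3.43-fold (349 to 1199 CPM, median 455).

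**Figure D1:**
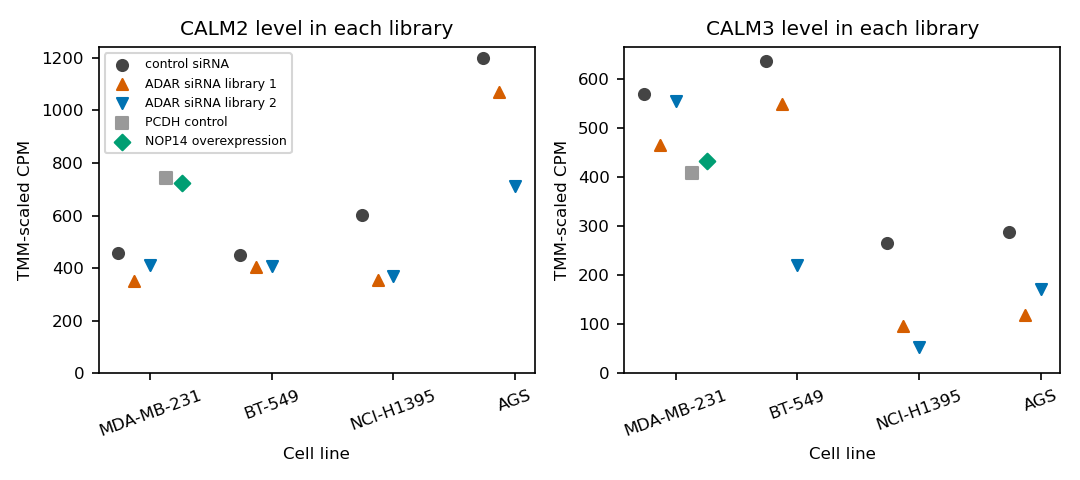
TMM-scaled CPM (y axis, from 0) of CALM2 (left) and CALM3 (right) in each of the 14 libraries, 1 point a library, by cell line (x axis). Among the siRNA libraries CALM2 is highest in AGS (713 to 1199 CPM), while the PCDH and NOP14 libraries of MDA-MB-231 hold 745 and 724 CPM. CALM3 is highest in the siRNA libraries of the breast lines, except for 220 CPM in BT-549 ADAR siRNA library 2.

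Both genes were abundant. By mean CPM, CALM2 (589) ranked 167 and CALM3 (345) ranked 405 among 42146 genes with at least 1 count. Which of them is the higher per length depends on the length taken. Per kilobase of merged exons (7113 bases for CALM2 and 5235 for CALM3, as the count table gives them), the control siRNA library of MDA-MB-231 held 64.4 CPM per kilobase of CALM2 and 109 of CALM3. Per kilobase of the principal transcripts (1302 and 2289 bases), the same library held 352 of CALM2 and 248 of CALM3. BT-549 turned in the same way (63.4 and 121, or 347 and 278). In NCI-H1395 (84.4 and 50.7, or 461 and 116) and AGS (169 and 54.97, or 921 and 126) CALM2 was higher by either length. Levels of one gene across libraries do not rest on this choice.

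CALM3 stood below its control in every ADAR siRNA library by TMM scaling, but by very different amounts. In MDA-MB-231 it was at 81.7% (95% counting interval 79.2 to 84.2) and 97.6% (94.9 to 100.4) of the control in libraries 1 and 2. In BT-549 it was at 86.3% (84.0 to 88.6) and 34.7% (33.5 to 35.8), so that library 2 held 0.40 times the level of library 1. In NCI-H1395 it was at 36.1% (34.3 to 37.9) and 19.9% (18.5 to 21.4), the latter the lowest value of the series. In AGS it was at 41.0% (39.0 to 43.2) and 59.6% (56.9 to 62.3), here with library 2 at 1.45 times library 1. The intervals come from an exact binomial calculation on the counts and cover counting error only. They are far narrower than the gaps between libraries 1 and 2 of BT-549, NCI-H1395 and AGS.

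CALM2 stood below its control in the same 8 libraries, and nearer to it than CALM3 in 5 of them. In MDA-MB-231 it was at 76.3% (73.7 to 79.0) and 89.5% (86.7 to 92.4), and in BT-549 at 89.6% (86.8 to 92.4) and 90.1% (87.5 to 92.8). In NCI-H1395 it was at 59.1% (57.4 to 60.8) and 61.3% (59.4 to 63.3). In AGS it was at 89.2% (87.5 to 91.0) and 59.5% (58.1 to 60.8). The pairs lay close together in BT-549 and NCI-H1395, where library 2 held 1.01 and 1.04 times library 1, and parted in AGS (0.67 times). In AGS the genes parted in opposite directions: CALM2 was lower in library 2 and CALM3 in library 1.

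Of 21944 genes that passed the filter on low counts over the 4 lines, 3.24% were lower than the control in all 8 ADAR siRNA libraries. CALM2 and CALM3 were both among them by TMM scaling, which was part of what chose them. With library totals as the scale, CALM3 in MDA-MB-231 library 2 stood at 100.1% of the control, so that its count became 7 of 8. That scale raised the log2 ratios of all genes in a library by as much as 0.19 (MDA-MB-231 library 1) against TMM. Both libraries of a line share 1 control. In bulk RNA, fewer cells that express a gene and less of its RNA per cell cannot be told apart. In BT-549, where CALM3 parted most between libraries 1 and 2, ADAR kept 12.9% and 11.5% of its control in them. In AGS and MDA-MB-231 ADAR and CALM3 kept more of their control in library 2, and in NCI-H1395 only ADAR did. With library totals ADAR in MDA-MB-231 had the other order, 36.8% in library 1 and 34.6% in library 2. Whether the levels of ADAR and CALM3 are linked was not tested.

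**Figure D2:**
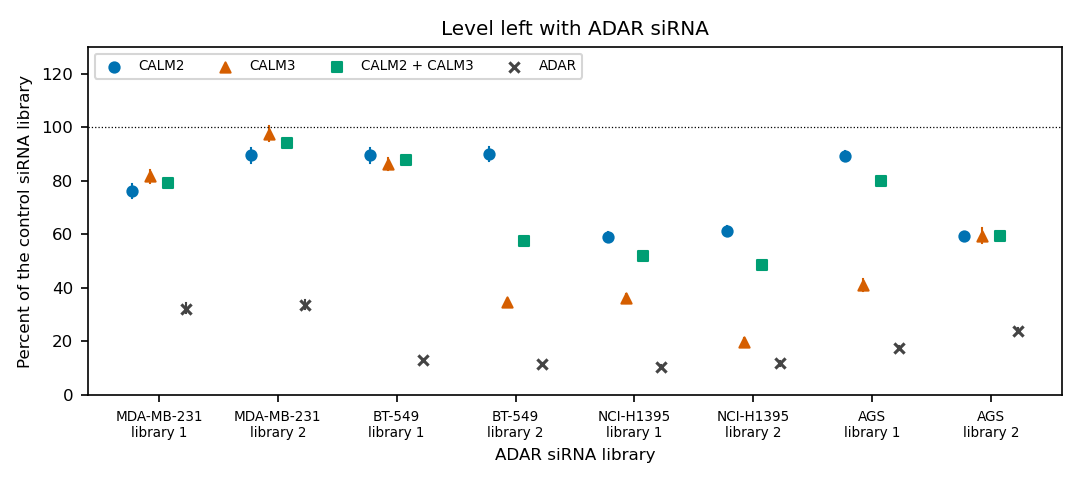
Percent of the control siRNA library of the same line (y axis) for CALM2, CALM3, their sum and ADAR in the 8 ADAR siRNA libraries (x axis), with lines for 95% counting intervals where they exceed the symbol; the sum has none. CALM3 spans 19.9% to 97.6% and CALM2 59.1% to 90.1%, while ADAR lies between 10.6% and 33.8% throughout.

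In edgeR's fit over the 4 lines, with ADAR siRNA libraries of a line summed, the log2 fold change was -0.38 ± 0.12 (standard error, 4 lines) for CALM2 and -0.90 ± 0.24 for CALM3. Without MDA-MB-231 it was -0.41 ± 0.14 and -1.15 ± 0.17. Within lines, from 2 ADAR siRNA libraries against 1 control, CALM3 stood at -1.84 ± 0.53 in NCI-H1395, -0.99 ± 0.54 in AGS, -0.73 ± 0.54 in BT-549 and -0.16 ± 0.55 in MDA-MB-231. CALM2 stood at -0.73 ± 0.26, -0.43 ± 0.27, -0.15 ± 0.27 and -0.27 ± 0.27 in the same order. The standard error of CALM3 was alike in all lines, since that fit takes one spread per gene from all 4 pairs, and larger than that of CALM2.

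Placed among the 10101 genes with a mean of at least 10 CPM, ordered from the lowest mean log2 ratio of the pair, CALM3 ranked 3 in NCI-H1395, 51 in AGS, 58 in BT-549 and 4145 in MDA-MB-231. CALM2 ranked 316 in NCI-H1395, 988 in AGS, 2810 in BT-549 and 2885 in MDA-MB-231. The 50 expressed genes nearest to CALM3 had median log2 ratios in libraries 1 and 2 of 0.14 and 0.07 (BT-549), 0.20 and 0.01 (NCI-H1395), -0.31 and 0.14 (AGS), and -0.12 and -0.06 (MDA-MB-231). Only in AGS library 1 were they clearly below 0, and CALM3 itself had a log2 ratio of -1.28 there.

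The summed level of CALM2 and CALM3, which covers these 2 genes only, was 866 CPM in the control of NCI-H1395, 1026 in MDA-MB-231, 1087 in BT-549 and 1487 in AGS. The highest line was at 1.72 times the lowest, a narrower range than for either gene alone (2.66 and 2.39 times). With ADAR siRNA the sum in NCI-H1395 kept 52.0% and 48.6% of its control level in libraries 1 and 2, the lowest of the lines. In AGS it kept 79.9% and 59.5%, in BT-549 87.6% and 57.7%, and in MDA-MB-231 79.3% and 94.0%. By TMM scaling no library held one gene above its control and the other below. In BT-549 library 2, the sum differed from the control by -460.1 CPM, of which CALM3 made up -415.4 CPM. In AGS library 2 the sum differed by -602.5 CPM, of which CALM2 made up -486.2 CPM. In NCI-H1395 the sum differed by -415.4 and -444.8 CPM, of which CALM2 made up -245.5 and -232.1 CPM. Which gene made up more in NCI-H1395 library 2 depends on the length taken. Per kilobase of merged exons CALM3 dropped more from the control (50.7 to 10.1) than CALM2 (84.4 to 51.7). Per kilobase of the principal transcripts CALM2 dropped more (461 to 283) than CALM3 (116 to 23.1).

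The CALM2 share of the counts of both genes needs no scaling between libraries, but takes no account of length. Per kilobase, the share in the MDA-MB-231 control was 37.2% with merged exons and 58.6% with principal transcripts. As counts it was 44.6% (exact 95% interval 43.9 to 45.3) in the MDA-MB-231 control and 42.9% and 42.5% with ADAR siRNA. In BT-549 it was 41.5% (40.8 to 42.2) in the control, 42.4% in library 1 and 64.8% (64.0 to 65.6) in library 2. The NCI-H1395 control held 69.3%, against 78.7% and 87.4% with ADAR siRNA, and the AGS control 80.6%, against 90.1% and 80.6%. Thus in BT-549 library 1 and AGS library 2 the genes kept almost the proportion of their control, and in BT-549 library 2, AGS library 1 and both NCI-H1395 libraries CALM2 made up more. In MDA-MB-231 the share lay slightly under that of the control in both libraries.

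**Figure D3:**
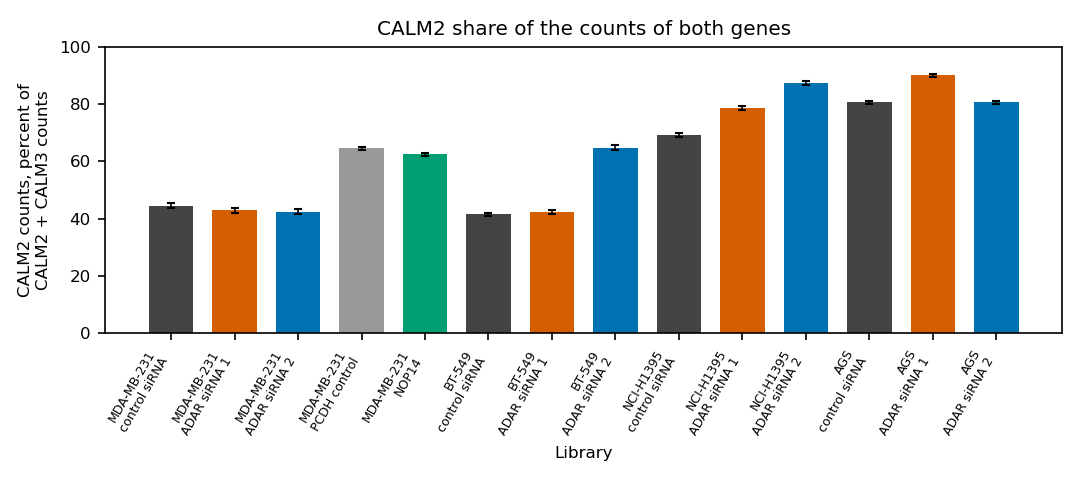
CALM2 counts as a percent of CALM2 plus CALM3 counts (y axis) in the 14 libraries (x axis), with exact 95% binomial intervals for counting error. The counts are not corrected for gene length. The share runs from 41.5% in the BT-549 control to 90.1% in AGS ADAR siRNA library 1, and the PCDH and NOP14 libraries (64.6% and 62.5%) lie above the siRNA libraries of the same line (42.5% to 44.6%).

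NOP14 overexpression left both genes close to their control, with 1 library an arm and hence no test. CALM2 was at 724 CPM with NOP14 and 745 with PCDH, a log2 ratio of -0.04 (95% counting interval -0.07 to -0.01). CALM3 was at 433 and 409 CPM, a log2 ratio of 0.08 (0.04 to 0.12). The controls of MDA-MB-231 differed more from each other than that. PCDH held 1.63 times the CALM2 and 0.72 times the CALM3 of the control siRNA library, although both carry the same line name. What set these controls apart was not tested.

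The levels and the ratios of CALM2 and CALM3 were likened to those of other genes. Over the 14 libraries Pearson's r between their log2 CPM was -0.04, and over the 8 log2 ratios to control it was 0.45. These values describe libraries that share lines and, in pairs, controls. The genes most like CALM2 in log2 CPM over 14 libraries, out of 10059, were ATL2 (r = 0.95), a GTPase that shapes the endoplasmic reticulum, AIDA (0.95) and the palmitoyltransferase gene ZDHHC3 (0.94). In these the AGS libraries were high, as with ATL2 at 122 to 156 CPM in AGS and 48.8 to 109 CPM elsewhere. Those most like CALM3 were SERBP1 (0.94), an mRNA-binding protein, HDGF (0.92), a growth factor of the nucleus, and HNRNPR (0.92).

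By ratio to control over the 8 ADAR siRNA libraries, the nearest to CALM2 were NUF2 (r = 0.98), a part of the kinetochore, RACGAP1 (0.97), which acts in cytokinesis, and DLGAP5 (0.97), which acts on the mitotic spindle. NUF2 was at 78.3 CPM in the AGS control, 76.7 in library 1 and 39.3 in library 2, and at 45.6, 23.4 and 24.4 in NCI-H1395. The nearest to CALM3 were ADI1 (0.97), an enzyme of methionine salvage, FASN (0.96), fatty acid synthase, and SREBF1 (0.95), a transcription factor of lipid synthesis. FASN was at 1463 CPM in the BT-549 control, 1900 in library 1 and 927 in library 2. A high r does not mean the same direction from the control. FASN and SREBF1 lay above their control in both MDA-MB-231 libraries and BT-549 library 1, where CALM3 lay below, as did ADI1 in MDA-MB-231 library 2. SREBF1 was at 60.1 CPM in the MDA-MB-231 control and 101 and 93.8 in libraries 1 and 2. In both NCI-H1395 libraries and both AGS libraries CALM3 kept a smaller part of its control level than each of these 3 genes. They were picked as the highest of 10059 values over only 8 libraries.

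**Figure D4:**
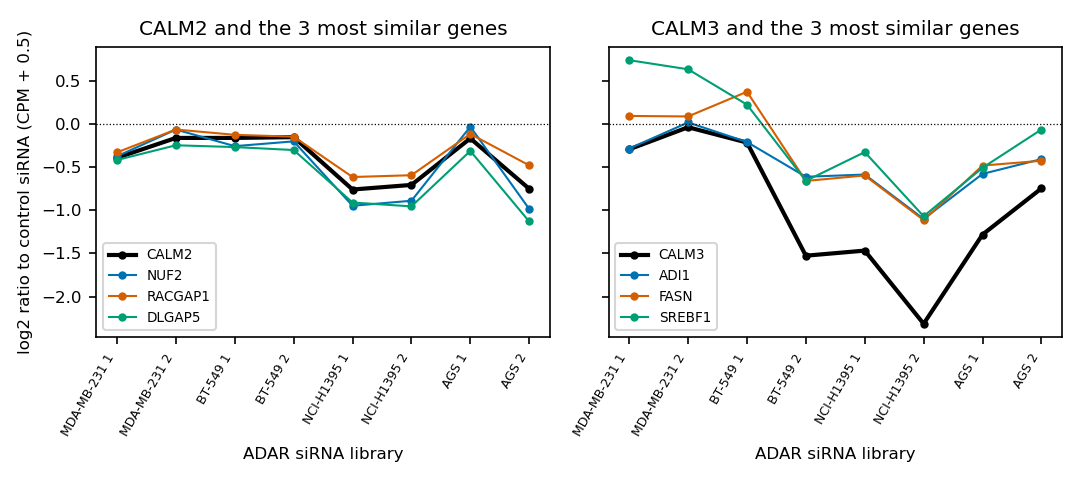
log2 ratio to the control siRNA library (y axis, CPM plus 0.5) in the 8 ADAR siRNA libraries (x axis) for CALM2 (left) and CALM3 (right), each in black with the 3 genes of highest Pearson's r; lines only join the points of a gene. CALM2 and its nearest genes are lowest in NCI-H1395 and AGS library 2, and CALM3 and its nearest genes are lowest in NCI-H1395 library 2.

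The proteins that calmodulin binds, and other calcium sensors, were taken as 8 lists with 151 genes, of which 123 passed the filter on low counts over the 4 lines. With ADAR siRNA, 61 of the 123 lay above 0 and 62 below, with a median log2 fold change of -0.0012. Of all 21944 genes 12564 lay above 0, with a median of 0.06. With library totals as the scale 68 of the 123 lay above 0 and 55 below (median 0.06). On that scale 14073 of all 21944 genes lay above 0, with a median of 0.11. By edgeR's quasi-likelihood test 0 of the 123 passed an adjusted p of 0.05, beside 0.0182% of all genes, and 17 had an unadjusted p under 0.05 (13.8%, against 11.5% of all genes). DESeq2 called 4 (3.25%), beside 3.22% of all genes, so the share called in the lists was about that of the background. Both shares include genes that DESeq2 gave no adjusted p, among them CAMK1 and CAMK2A. The 4 called genes were lower, as were 578 of the 707 calls of DESeq2 over all genes. Without MDA-MB-231 edgeR called 0 of 120 partner genes, beside 0.372% of all genes, and 16 had an unadjusted p under 0.05 (13.3%, against 12.9% of all genes). Within lines edgeR called 0 of 129 in each line, beside 0.0751% of all genes in MDA-MB-231 and 0.00417% in each of BT-549, NCI-H1395 and AGS, which is 1 gene, ADAR itself. At an unadjusted p under 0.05 stood 15 of the 129 in MDA-MB-231 (11.6%, against 4.85% of all genes) and 7 in BT-549 (5.43% against 3.1%). In NCI-H1395 and AGS 9 stood there in each (6.98%, against 5.3% and 4.98%). In simulated data the same test recovered 65% of 2-fold changes over the 4 lines and 6% within 1 line. There each changed gene had the same fold in every line, and all genes the same spread. Real changes that differ between lines may thus be missed more often.

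The genes called by DESeq2 alone were 3 EF-hand genes and 1 myosin gene. CIB1, a small EF-hand protein that binds integrin tails, was lower in 8 of 8 libraries. In MDA-MB-231 its control held 31.1 CPM and libraries 1 and 2 held 17.8 and 26.03 CPM, and in AGS the control held 47.9 and the libraries 41.8 and 30.9 CPM. The control of BT-549 held 75.5 CPM, against 63.0 and 52.2, and that of NCI-H1395 67.8 CPM, against 56.2 and 49.0. CIB1 had a log2 fold change of -0.42 ± 0.08 with DESeq2 (adjusted p = 0.000117) and of -0.39 ± 0.12 with edgeR (adjusted p = 0.225). EFHD2, an actin-binding EF-hand protein, was lower in 7 of 8 libraries (-0.49 ± 0.14 with DESeq2, adjusted p = 0.0121). Its NCI-H1395 control held 304 CPM, against 220 and 124 with ADAR siRNA, and its MDA-MB-231 control 333 CPM, against 250 and 341. MYO1C, a myosin that carries calmodulin as its light chain, was lower in 7 of 8 (-0.35 ± 0.11 with DESeq2, adjusted p = 0.0295). S100A16 was lower in 6 of 8 (-0.32 ± 0.10 with DESeq2, adjusted p = 0.0208), and BT-549 held at most 0.09 CPM of it. The edgeR adjusted p of EFHD2, MYO1C and S100A16 were 0.185, 0.284 and 0.363.

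The lists of kinases, of calcineurin and NFAT, and of other enzymes and pumps, which include calcineurin inhibitors, showed no common direction. Of 21 calmodulin-dependent kinase genes 13 lay above 0 and 8 below (median 0.06), beside 12564 above 0 of all 21944 genes. CAMK1 stood at -0.64 ± 0.30 on the log2 scale (edgeR adjusted p = 0.429), with at most 10.8 CPM. CAMK2A had 2.64 ± 1.01 (edgeR adjusted p = 0.329), with at most 0.88 CPM in any library, so its value rests on few counts. Of 12 calcineurin and NFAT genes 8 lay above 0 (median 0.11), with the calcineurin inhibitors CABIN1 at 0.23 ± 0.11 (edgeR adjusted p = 0.420, higher in 7 of 8 libraries) and RCAN1 at 0.29 ± 0.16 (0.513, higher in 6 of 8). Of 10 other enzymes and calcium pumps 6 lay above 0 (median 0.04). Their smallest p belonged to the inositol trisphosphate kinases ITPKA (-0.60 ± 0.29, lower in 7 of 8) and ITPKC (0.30 ± 0.19, lower in 4 of 8), with edgeR adjusted p of 0.448 and 0.601.

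Among channels that bind calmodulin 9 of 14 lay above 0 (median 0.19), beside 12564 of all 21944 genes. ITPR2, a calcium release channel of the endoplasmic reticulum, was higher in 7 of 8 libraries (0.30 ± 0.13, edgeR adjusted p = 0.369). KCNN3, a calcium-activated potassium channel, stood at 2.68 ± 1.06 (edgeR adjusted p = 0.339) from 0 to 2.15 CPM. Without MDA-MB-231 the median of the channels was -0.08, with 5 of 12 above 0, beside 11558 of all 20162 genes. The IQ-motif and cytoskeletal partners were split, 13 above and 15 below 0 (median -0.02), and with library totals 16 above and 12 below (median 0.03), with the myosin gene MYO5B at 0.42 ± 0.16 (edgeR adjusted p = 0.315). Without MDA-MB-231 that median was 0.07.

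Of 5 measured small proteins that hold or release calmodulin, 3 lay above 0 (median 0.28), beside 12564 of all 21944 genes. MARCKS, which shuttles between membrane and calmodulin, stood at 0.33 ± 0.13 (edgeR adjusted p = 0.347), and NRGN (neurogranin), which binds calcium-free calmodulin, at -0.41 ± 0.18 (0.379). MARCKS was at 242 CPM in the AGS control and 391 and 423 CPM with ADAR siRNA, and at 159 against 197 and 229 in MDA-MB-231. In BT-549 (45.8 against 40.2 and 53.9) and NCI-H1395 (53.2 against 37.4 and 72.8) its libraries lay on both sides of the control. Of the other calcium sensors, 14 of 20 other EF-hand genes (median -0.13) and 10 of 13 S100 genes (median -0.18) lay below 0, where 42.7% of all genes did. With DESeq2 these counts were 16 of 20 and 8 of 13, where 48.3% of all genes lay below 0. Within lines the EF-hand counts ran from 13 of 23 (AGS and BT-549) to 15 of 23 (NCI-H1395). The S100 counts ran from 5 of 13 in BT-549, where 6 lay above 0, to 10 of 13 in MDA-MB-231. Of all genes, 40.6% (AGS) to 44.6% (MDA-MB-231) lay below 0 within lines. With library totals the counts over the 4 lines were 12 of 20 (median -0.07) and 10 of 13 (median -0.13). On that scale 7871 of all 21944 genes lay below 0. The S100 gene with the next smallest p after S100A16 was S100A2 (-0.33 ± 0.17, edgeR adjusted p = 0.493).

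**Figure D5:**
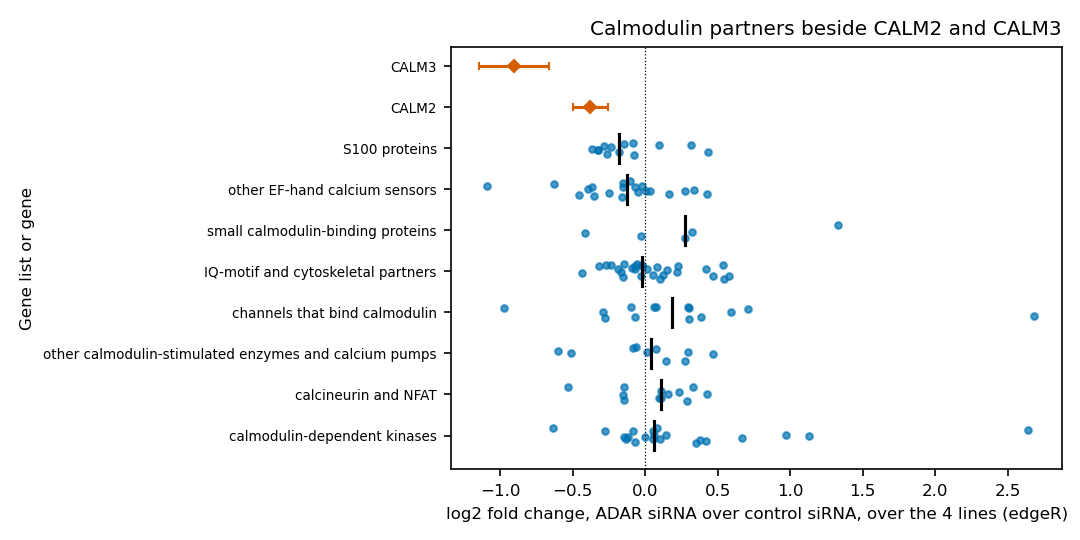
log2 fold change with ADAR siRNA over the 4 lines from edgeR (x axis) for each tested gene of the 8 lists (points, with black bars at the list medians) and for CALM2 and CALM3 (diamonds with standard errors). The list medians lie between -0.18 and 0.28, and single list genes between -1.09 (CALML6) and 2.68 (KCNN3). CALM2 and CALM3, which were selected on their ratios in these libraries, lie at -0.38 and -0.90.

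With NOP14 overexpression none of the listed genes at 5 CPM or more differed by over 2-fold, as was the case for all but 2 of 10944 genes. The list medians lay between -0.06 (calcineurin and NFAT, 8 of 9 lower) and 0.10 (small calmodulin-binding proteins, 4 of 4 higher). Of the other EF-hand sensors 11 of 13 were higher (median 0.05). Of all 10944 genes 5638 were higher and 5306 lower, with a median of 0.0038. The largest log2 ratio of each list was -0.28 for CAMK4, 0.14 for NFATC2, 0.20 for PDE1C, 0.11 for ITPR2, 0.11 for MYO5A, 0.14 for MARCKS, 0.23 for CETN3 and 0.09 for S100A6. There is 1 library in each arm, so these carry no test.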

How the data were processed

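The deposited values are integer read counts per gene over its exons in 14 libraries, for which the submitters' processing notes name hg38, featureCounts 2.0.6, STAR 2.7.11a and fastp 0.23.4, with no parameters. The strand setting, the annotation release and the treatment of multimapping reads are not given in the sources used here. The deposited table also lists, per the file headers, an exon length for each gene, which is no measurement of a sample. Of 62702 lines, 3 broken ones of 1 gene were not used.

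Samples were grouped from the labels by line and treatment. CALM2, CALM3 and the lists were chosen with earlier results of these data known. The sum covers CALM2 and CALM3, and other calmodulin genes are not reported here. Tests ran in R 4.3.3 with edgeR 4.0.16 (filterByExpr, TMM, robust quasi-likelihood fits, Benjamini-Hochberg adjustment over all genes). For the fit over the 4 lines, both ADAR siRNA libraries of each line were added up, giving 8 columns and 3 residual degrees of freedom with cell line as a term. Within lines, 8 groups were fitted to 12 libraries, and the spread came from the pairs of ADAR siRNA libraries, so p-values measure only differences between these samples, which may be technical. Genes named besides the members were the 2 of smallest p in each list over the 4 lines, up to 6 list genes called in a fit, the largest NOP14 ratio of each list and the 3 most similar genes. NOP14 ratios used a prior count of 2, and similarity a pseudocount of 0.5 CPM. Exact intervals cover 95% and came from scipy 1.17.1 in Python 3.11.15. Alternatives were median-ratio scaling, library totals, no count filter, DESeq2 1.42.0, unsummed libraries, a term for the library number, and leaving out each line or library. On simulated data, the fit over the 4 lines (22391 genes) found 65% of 2-fold and 100% of 4-fold changes, and called 6 unchanged genes. The fit within AGS (22993 genes) found 6% and 58%, and called 1 unchanged gene. The simulation gave each changed gene the same fold in every line, and all genes the same spread. These shares may thus be too high for changes that differ between lines. In the real data ADAR, at -2.50 ± 0.29 over the 4 lines, had an adjusted p of 0.0996 by edgeR's quasi-likelihood test.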

Additional observations from a re-analysis of the deposited data

Results flagged for a closer look

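RCAN1, an inhibitor of calcineurin, lay on different sides of its control between lines with ADAR siRNA, and passed edgeR's test in none of them (adjusted p = 1 in each). Its mean log2 ratio of both libraries was 0.21 in MDA-MB-231, 0.57 in BT-549 and 0.42 in AGS, with each library above its control, and -0.27 in NCI-H1395, with each library below. ITPKC, an inositol trisphosphate kinase, stood at 0.99 in NCI-H1395 and -0.23 in AGS, and NRGN (neurogranin) at 0.16 in BT-549 and -0.68, -0.46 and -0.75 in MDA-MB-231, NCI-H1395 and AGS, again with both libraries of a line on one side. Neither passed edgeR's test in any line (smallest adjusted p = 0.534, for ITPKC in NCI-H1395). The differences between lines were not tested for these 3 genes, and each line has 1 control.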

How the results depend on the processing

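CALM2 and CALM3 kept log2 fold changes below 0 over the 4 lines and within each line under all alternatives run. Their sizes did not: without ADAR siRNA library 1 or 2, CALM3 stood at -1.53 or -0.21 in BT-549, -0.03 or -0.29 in MDA-MB-231, -0.75 or -1.28 in AGS and -2.35 or -1.48 in NCI-H1395. CALM2 stood at -0.75 or -0.16 in AGS and -0.15 or -0.39 in MDA-MB-231. Of the recomputed main values 170 moved by less than a yardstick and 44 by more. It was the SD between libraries 1 and 2 of a line (between lines for the fit over 4), the counting interval for NOP14 ratios, and 1.5 times for counts. Where libraries 1 and 2 nearly coincide it is narrow, so small shifts pass it, and where they part it is wide. Counts of called genes depended most on the settings. Over the 4 lines the count of 4 became 394 with no count filter, 707 with DESeq2 and 1 with 12 libraries unsummed. It ran from 0 to 75 when a line or the libraries of 1 number were left out: 75 without MDA-MB-231, 0 without BT-549, 0 without NCI-H1395, 0 with library 2 alone and 14 with library 1 alone. The cause was not tested. Partner genes called went from 0 to 4 with DESeq2. Within lines DESeq2 called 53 genes in MDA-MB-231 (1 of them a partner, SPTAN1) against 18, and 14 in AGS, 47 in NCI-H1395 and 3 in BT-549 against 1 each, and median-ratio scaling called 2 in AGS. Without 1 of the ADAR siRNA libraries the counts were 1 to 8 in AGS, 38 to 39 in NCI-H1395, 1 to 32 in BT-549 (32 without library 1) and 2 to 4 in MDA-MB-231.

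With a replicate block (a term for the library number, with controls at its centre) 2 genes were called over the 4 lines with libraries unsummed, and within lines 187 (MDA-MB-231), 42 (BT-549), 149 (NCI-H1395) and 65 (AGS). Of these, 3 in MDA-MB-231 were partners (ADD2 and, lower, PDE1C and SPTAN1) and 3 in NCI-H1395 (S100A6 and MYO10 and, lower, ITPR1), named after their values were seen. The differences of library 2 from 1 correlated across 10101 genes at 0.23 to 0.55 among BT-549, NCI-H1395 and AGS, and in MDA-MB-231 at -0.10 with BT-549, -0.07 with NCI-H1395 and 0.11 with AGS. Since 2 pairs stood under 0.1 and the labels tie no number to a shared source, the number was not taken as a pairing over the 4 lines, although the data hint at one among the other 3.

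Scaling moved the members' ratios modestly. With library totals CALM2 was at 86.9% of the control in MDA-MB-231 library 1, 88.0% and 92.3% in BT-549, and 62.8% and 65.5% in NCI-H1395 (log2 fold change -0.64). CALM3 was at 93.1% in MDA-MB-231 library 1, and the sum at 90.3% there and at 55.3% and 51.9% in NCI-H1395. With median-ratio scaling CALM2 was at 90.1% in BT-549 library 1, and its log2 fold change there was -0.14, as with DESeq2 (-0.14). Per kilobase, the sum in NCI-H1395 was at 54.5% and 53.0% with principal transcript lengths, an alternative chosen after seeing the data, and at 45.8% in library 2 with merged exons. Each line rests on 1 control library, whose own spread is unknown.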

Other observations

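Of the genes named above, 4 that were chosen here after their levels were seen stood far apart between lines. CAMK4, a calmodulin-dependent kinase, was at 196 to 211 CPM in BT-549, 14.6 to 26.1 CPM in NCI-H1395 and MDA-MB-231, and at most 0.18 CPM in AGS. MYO5B, a myosin of vesicle recycling, was at 124 to 149 CPM in AGS and at most 12.9 CPM elsewhere. NFATC2, a transcription factor freed by calcineurin, was at 20.4 to 48.6 CPM in AGS and MDA-MB-231 and at most 2.81 CPM in BT-549 and NCI-H1395. S100A6, a calcium sensor of the S100 list, was at 1697 to 3172 CPM in MDA-MB-231 and at most 1.97 CPM in NCI-H1395. These are levels of genes named for other comparisons, with no test between lines.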
